A study of Mus musculus with 22 samples.

Results

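Cannabidiol (CBD), the non-intoxicating cannabinoid of Cannabis, binds the classical cannabinoid receptors weakly, and 10 genes for other receptors and channels at which it has been reported to act were followed in mouse brain. They are Gpr3, Gpr6 and Gpr12, Gpr55, Trpv1 and Trpv2, Htr1a, Adora1 and Adora2a, and Pparg. The genes were taken by symbol from a table of 56748 genes, each matched 1 row, and all 10 were among the 20026 genes that passed the filter on low counts. RNA came from the whole brains of 22 male C57BL/6J mice aged 17.5 months, and the 6 groups crossed an early chemical exposure, a late CBD course and a final inflammatory challenge.

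GWCBD30LPS mice (4) received the chemicals, CBD and lipopolysaccharide (LPS), and GWCBD30 mice (4) received the chemicals, CBD and sterile PBS. GWVehLPS mice (4) received the chemicals, CBD vehicle and LPS, and GWVeh mice (4) received the chemicals, CBD vehicle and PBS. CtrlVehLPS mice (3) received the vehicle of the chemicals, CBD vehicle and LPS, and CtrlVeh mice (3) received both vehicles and PBS. The chemicals model Gulf War exposure and were injected into the peritoneum each day for 10 days from 10 weeks of age. They were pyridostigmine bromide at 0.7 mg/kg, which blocks acetylcholinesterase, and the pyrethroid insecticide permethrin at 200 mg/kg, which holds sodium channels open. CBD was given at 30 mg/kg in 5% Tween 80 in PBS, daily for 28 days and then every other day for 2 weeks. LPS, a cell-wall component of Escherichia coli that provokes systemic inflammation, was given once at 0.33 mg/kg, and brains were taken 24 h later. Every mouse was therefore old, male and repeatedly injected, and CBD was given to exposed mice only.

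Most of these proteins signal through G proteins. Gpr3, Gpr6 and Gpr12 are a family of orphan receptors that couple to Gs and raise cyclic AMP without an added ligand, and CBD has been described as an inverse agonist of them. Gpr55, a receptor for lysophosphatidylinositol, couples to G12/13 and Gq proteins, and CBD antagonises it. Htr1a encodes the 5-HT1A serotonin receptor, which is coupled to Gi/o and serves as the autoreceptor of serotonin neurons and as a postsynaptic receptor in the hippocampus. Of the adenosine receptors, that of Adora1 lowers cyclic AMP and that of Adora2a raises it, and the second is concentrated in striatal neurons of the indirect pathway. Trpv1 and Trpv2 are cation channels activated by CBD, and Pparg encodes a nuclear receptor that switches on genes of lipid storage and fatty acid use.

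The upstream sequences of the 3 orphan Gs receptors are shown because these receptors are a family that acts on cyclic AMP. That of Adora1 is shown because it alone of the 10 genes passed in a group contrast of the reported fit below. Each is the 250 bases before a transcription start, 5′ to 3′ on the gene's own strand (all are minus-strand genes), from RefSeq with build GRCm38.p6. Capitals mark the cyclic AMP response element TGACGTCA or its core TGACG, searched on both strands, where the core also lies within the full element.
Gpr6, chr10:41072291-41072540: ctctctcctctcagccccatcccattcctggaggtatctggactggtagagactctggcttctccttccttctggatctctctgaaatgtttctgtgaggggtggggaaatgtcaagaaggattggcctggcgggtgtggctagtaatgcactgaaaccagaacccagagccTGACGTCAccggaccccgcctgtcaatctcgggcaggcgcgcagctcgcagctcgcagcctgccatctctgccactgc
Gpr3, chr4:133212537-133212786: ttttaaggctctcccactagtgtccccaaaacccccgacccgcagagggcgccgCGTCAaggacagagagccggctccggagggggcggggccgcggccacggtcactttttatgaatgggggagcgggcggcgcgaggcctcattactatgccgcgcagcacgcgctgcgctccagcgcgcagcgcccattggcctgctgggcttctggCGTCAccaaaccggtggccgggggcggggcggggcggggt
Gpr12, chr5:146585240-146585489: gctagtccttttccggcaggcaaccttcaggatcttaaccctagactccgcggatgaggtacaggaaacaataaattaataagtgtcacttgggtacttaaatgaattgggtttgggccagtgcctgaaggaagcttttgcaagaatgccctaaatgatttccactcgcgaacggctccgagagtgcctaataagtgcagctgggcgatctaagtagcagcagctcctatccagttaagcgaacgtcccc
Adora1, chr1:134235458-134235707: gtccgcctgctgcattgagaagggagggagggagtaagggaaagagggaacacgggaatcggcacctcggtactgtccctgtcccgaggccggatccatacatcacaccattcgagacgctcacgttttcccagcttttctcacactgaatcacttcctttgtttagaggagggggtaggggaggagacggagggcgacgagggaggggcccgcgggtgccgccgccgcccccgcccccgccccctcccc
Gpr6 carried the full element 78 bases before the start, as did 1.55% of 32851 mouse promoter windows of the same length. Gpr3 carried the core without the full element, and 17.8% of all windows held the core. Gpr12, at this start and at its other listed start, and Adora1, at both of its listed starts, had no match. The GC box GGGCGG, on either strand, was found 5 times before Gpr3 and 3 times before Adora1, and 32.7% of all windows held at least 1. RefSeq windows were matched for 9 of the 10 genes, and the windows of the remaining matched genes held neither the full element nor its core. These matches describe letters only.

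The genes lie on several chromosomes of GRCm38 (GENCODE M21), and all are annotated as protein-coding. Gpr3, on chromosome 4 from 133209340 to 133212536, Gpr6, on chromosome 10 from 41069977 to 41072285, and Gpr12, on chromosome 5 from 146582398 to 146585239, are compact genes. Adora1 spans chromosome 1 from 134199223 to 134235431, and 20.1% of its exonic bases overlap Mybph on the opposite strand, which had 139 counts in all libraries against 91842 for Adora1. Gpr3 shared 7.46% of its exonic bases with Cd164l2, and Gpr55 shared 1.91% with 4933407L21Rik, both on opposite strands. Over all libraries Gpr3 had 3066 counts against 1548 for Cd164l2, and Gpr55 had 823 against 1407 for 4933407L21Rik. The libraries were stranded, but the strand setting of the counting is not given in the sources used here. Coding sequences within the family were 67.5% identical for Gpr3 and Gpr6, 64.1% for Gpr3 and Gpr12, and 63.7% for Gpr6 and Gpr12, with identical runs of at most 15 bases.

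Libraries held 17.2 to 31.2 M counts. Markers of striatal neurons, choroid plexus, microglia and general brain tissue were detected in every group. The summed level of 8 olfactory bulb markers was 55.9 to 113 CPM in CtrlVehLPS and 24.1 to 28.6 CPM in CtrlVeh. It was 24.9 to 64.3 CPM in GWVehLPS and 27.2 to 33.3 CPM in GWVeh. With CBD it was 24.4 to 51.1 CPM in GWCBD30LPS and 24.1 to 35.9 CPM in GWCBD30. Without CtrlVehLPS replicate 1 the unexposed groups stayed separate, with replicates 2 and 3 of CtrlVehLPS at 66.7 and 55.9 CPM. The part of bulb tissue in the LPS contrasts was not tested. The library CtrlVehLPS replicate 1 stood apart: the summed level of 8 cerebellar neuron markers was 19.0 CPM there, against 587 to 1077 CPM in the other libraries, and the summed level of 12 pancreatic enzymes was 331 CPM, against 4.05 to 6.28 CPM in the others. CPM, used throughout, is the count of a gene per M counts of the TMM-scaled library size. For Adora1, Gpr55, Gpr6 and Adora2a, contrasts that draw on that library are given with it and, where stated, without it. Contrasts of other genes, among them Htr1a, Pparg, Trpv4, Adcy5 and Cacna1h, are given with it.

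Adora1 RNA was by far the most abundant of the set, and Trpv1 RNA was close to the detection floor. Per kilobase of exon, Adora1 averaged 32.2 ± 2.28 RPKM and Adora2a 11.2 ± 1.39 RPKM (SD, n = 22). Gpr12 followed at 7.03 ± 0.81 RPKM. Gpr6 at 4.55 ± 0.94, Trpv2 at 4.52 ± 0.40 and Htr1a at 4.44 ± 0.58 RPKM lay within each other's spread. Gpr3 averaged 2.27 ± 0.36, Pparg 0.96 ± 0.21, Gpr55 0.44 ± 0.12 and Trpv1 0.056 ± 0.044 RPKM. In bulk tissue, fewer cells of a type and less RNA per cell cannot be told apart.

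**Figure D1:**
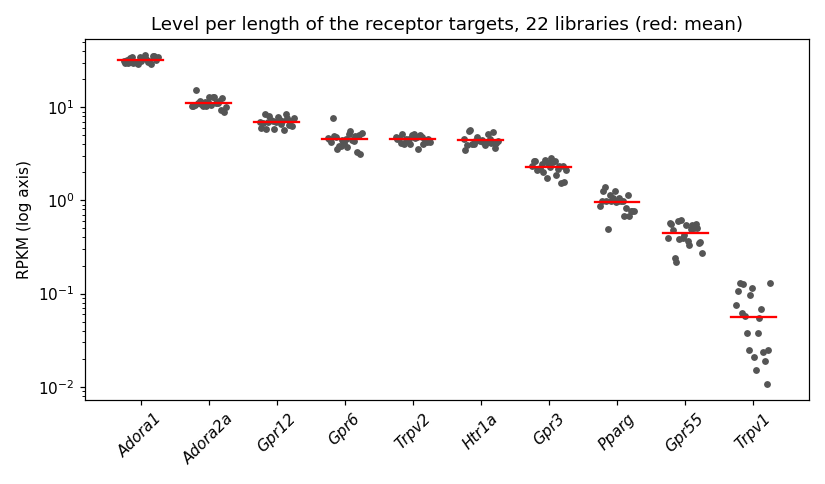
Level per exon length (RPKM, log axis) of the 10 receptor genes, with a point for each of 22 libraries and a red line at the mean. Adora1 lies highest, with a mean of 32.2 RPKM, and Trpv1 lowest, with a mean of 0.056 RPKM; the 2 libraries with 0 Trpv1 counts cannot be drawn on a log axis.

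Across the 6 groups, the highest group mean exceeded the lowest by 1.11-fold for Gpr12, 1.12-fold for Trpv2, 1.15-fold for Adora1, 1.24-fold for Adora2a and 1.28-fold for Htr1a. The ratio was 1.34 for Gpr3, 1.47 for Gpr6, 1.48 for Pparg, 1.65 for Gpr55 and 2.82 for Trpv1, which had few counts. When the groups were put in order of their mean for each gene, 2 of the 50 gaps between neighbours were larger than both groups' SDs, and none of the 50 pairs had separate ranges. Those were Trpv2, with GWCBD30LPS above CtrlVeh, and Adora2a, with GWVeh above GWCBD30.

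**Figure D2:**
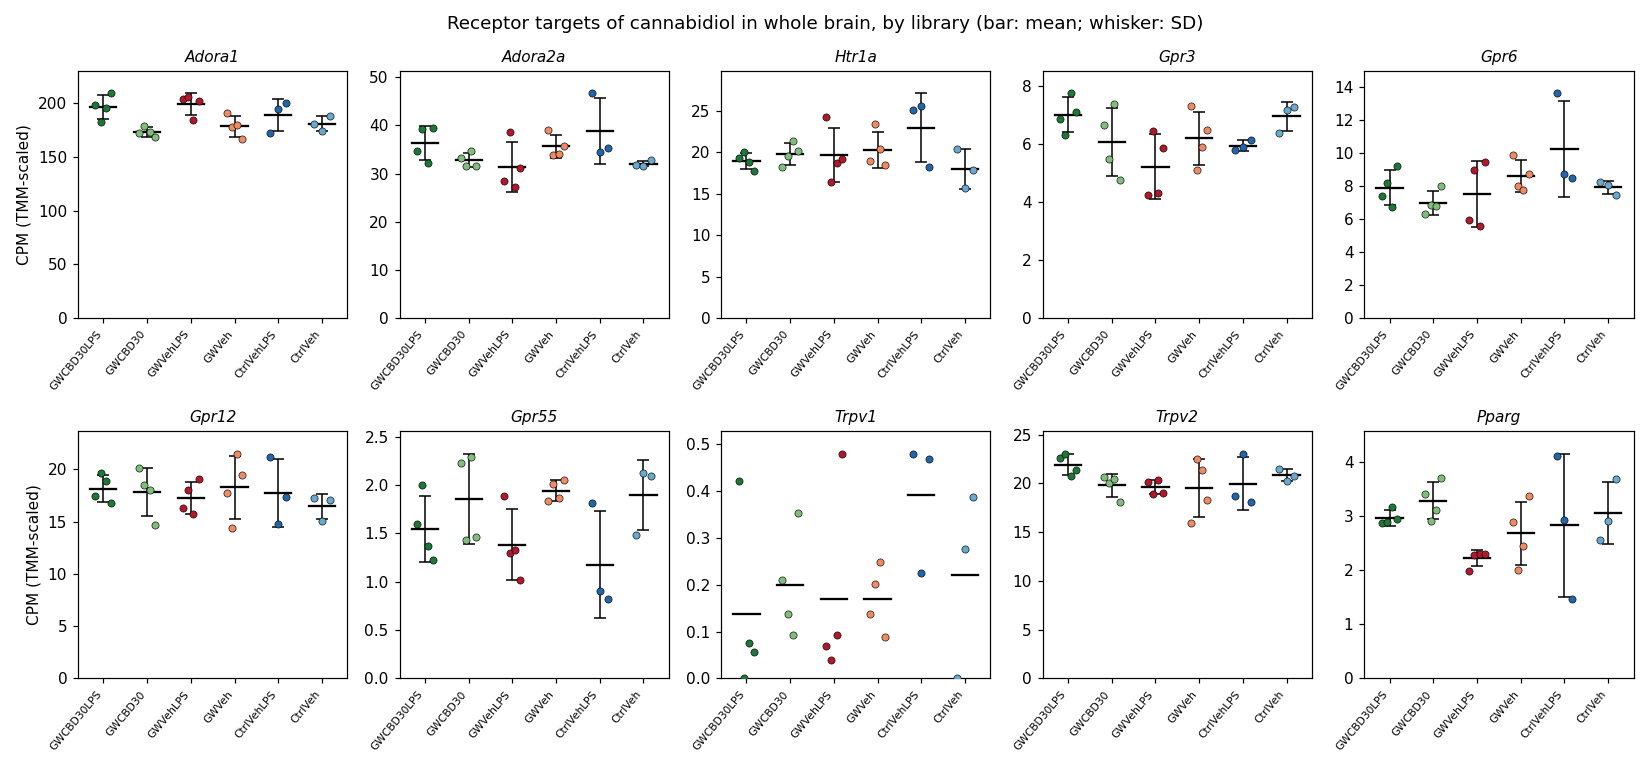
Level of each receptor gene (CPM, linear axis from 0) in the 6 groups, with a point per library, a bar at the mean and a whisker of 1 SD (none for Trpv1, which has few counts). Group ranges overlap for most genes; the Adora1 panel shows the LPS groups of exposed mice above their PBS groups, at means of 196 and 173 CPM with CBD and of 199 and 179 CPM with vehicle.

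The LPS contrast over all arms averages the LPS response of the 3 arms, and it asks which receptors changed a day after the challenge. In edgeR's quasi-likelihood test with Benjamini-Hochberg adjustment over all genes, 1 of the 10 genes passed an adjusted p of 0.05, against 3.52% of all genes. That gene was Adora1, the inhibitory adenosine receptor, which rose by 0.13 ± 0.04 on the log2 scale (SE; adjusted p = 0.0295). The 10 genes had a median log2 change of 0.05, against -0.01 over all genes. The second smallest p belonged to Gpr55, at a log2 change of -0.46 ± 0.16 (adjusted p = 0.114).

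Adora1 read 199, 183, 195 and 209 CPM in GWCBD30LPS, against 172, 179, 173 and 169 CPM in GWCBD30. It read 204, 206, 185 and 202 CPM in GWVehLPS, against 191, 178, 180 and 167 CPM in GWVeh. It read 172, 195 and 200 CPM in CtrlVehLPS, against 180, 174 and 188 CPM in CtrlVeh. The LPS and PBS libraries were fully separate, with LPS higher, in the CBD arm, where 3.39% of all genes were separate in that direction, and they overlapped in the other arms, and the low CtrlVehLPS value came from the library that stood apart. The log2 change was 0.18 ± 0.06 in exposed CBD mice (adjusted p = 0.409), 0.16 ± 0.06 in exposed vehicle mice (adjusted p = 0.268) and 0.06 ± 0.07 in unexposed mice (adjusted p = 0.766), so no arm passed alone. Those responses were not shown to differ: the exposure by LPS interaction was 0.10, with a 95% interval of -0.09 to 0.28, and the CBD by LPS interaction was 0.02, with an interval of -0.15 to 0.19. Without the library that stood apart the pooled change was 0.15 (adjusted p = 0.00617). With marker scores for the olfactory bulb and the cerebellum as covariates it was 0.15 (adjusted p = 0.0797). Adora1 missed the threshold when CtrlVehLPS replicate 2 or 3, CtrlVeh replicate 1 or 2, GWVehLPS replicate 1, GWVeh replicate 4, or GWCBD30LPS replicate 1 or 4 was left out, with adjusted p up to 0.0829.

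Over the 22 libraries its log2 CPM correlated with the mean log2 CPM of 5 serotonin neuron markers at r = 0.62 (permutation test, adjusted p = 0.0396 over 99 gene and marker list pairs; rho = 0.57, adjusted p = 0.129). The r was 0.46 without the 2 libraries farthest from the median score and 0.49 after centring each group. Here and below, libraries were permuted across all 6 groups, so the p-values do not set differences between groups apart. The centred r values were not tested. With 8 endothelial markers, all detected, r was 0.55 (adjusted p = 0.128; rho = 0.57, adjusted p = 0.129), at 0.63 without the 2 farthest libraries and 0.29 after centring. The sum of the endothelial markers was 113 to 120 CPM in GWCBD30LPS and 106 to 124 CPM in GWCBD30, 143 to 160 CPM in GWVehLPS and 105 to 123 CPM in GWVeh, and 118 to 135 CPM in CtrlVehLPS and 110 to 128 CPM in CtrlVeh. With the microglial markers r was 0.50 (adjusted p = 0.158; rho = 0.46, adjusted p = 0.276), and it was 0.46 without the 2 farthest libraries and -0.41 after centring each group. The summed level of the serotonin neuron markers, all detected, was 56.3 to 70.3 CPM in GWCBD30LPS and 28.4 to 68.6 CPM in GWCBD30. It was 67.6 to 80.3 CPM in GWVehLPS and 28.6 to 75.9 CPM in GWVeh. It was 51.9 to 74.5 CPM in CtrlVehLPS and 34.7 to 43.0 CPM in CtrlVeh, where the marker Fev was at 0 in 1 library. The sum of 9 microglial markers, all detected, was 248 to 276 CPM in GWCBD30LPS and 209 to 234 CPM in GWCBD30, and 276 to 359 CPM in GWVehLPS and 202 to 225 CPM in GWVeh. It was 314 to 326 CPM in CtrlVehLPS and 208 to 216 CPM in CtrlVeh, so the LPS libraries were above the PBS libraries in each arm. The part of these cells in the Adora1 result was not tested. The genes whose levels followed Adora1 most closely over the 22 libraries were Slc9a3r1 (r = 0.90, rho = 0.88), a glycerol phosphate dehydrogenase, Gpd1 (r = 0.86, rho = 0.90), and the glycolytic enzyme Aldoc (r = 0.86, rho = 0.87). Such nearest genes were chosen by r among all genes tested, share the libraries' depth and tissue makeup with the receptor, and are given here and below as a description.

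Gpr55 read 1.59, 2.00, 1.38 and 1.22 CPM in GWCBD30LPS, against 2.23, 1.43, 2.29 and 1.47 CPM in GWCBD30. It read 1.89, 1.30, 1.33 and 1.01 CPM in GWVehLPS, against 1.84, 2.01, 1.86 and 2.06 CPM in GWVeh. It read 1.81, 0.900 and 0.819 CPM in CtrlVehLPS, against 1.48, 2.12 and 2.10 CPM in CtrlVeh. The LPS mean was the lower in all 3 arms, but the libraries overlapped in each. The log2 changes were -0.26 ± 0.27, -0.47 ± 0.27 and -0.65 ± 0.32 in exposed CBD, exposed vehicle and unexposed mice, and each adjusted p was over 0.05, the smallest being 0.399. Without the library that stood apart the change in unexposed mice was -1.15 (adjusted p = 0.195), and the change over all arms was -0.63, which passed the threshold (adjusted p = 0.0255). Gpr55 had r = -0.49 with the microglial markers (permutation test, adjusted p = 0.158), and 0.42 after centring each group. With the olfactory bulb markers r was -0.49 (adjusted p = 0.158), at -0.68 without the 2 farthest libraries and -0.03 after centring. The part of these cells in the Gpr55 values was not tested. The nearest genes in pattern were Exoc2 (r = 0.75, rho = 0.75), Zfp953 (r = 0.74, rho = 0.71) and Riox2 (r = 0.74, rho = 0.65). Gpr55 had 14 to 49 counts in the CtrlVehLPS libraries, so counting error alone is large. CBD was set against vehicle with log2 differences of 0.15 (95% interval -0.40 to 0.70) under LPS and -0.06 (-0.59 to 0.47) without it.

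The orphan Gs receptors did not pass any test. Gpr3 read 6.86, 6.30, 7.75 and 7.11 CPM in GWCBD30LPS, against 4.23, 6.46, 4.32 and 5.87 CPM in GWVehLPS. The groups overlapped by the lowest GWCBD30LPS value alone, and the log2 difference of CBD from vehicle under LPS was 0.43 ± 0.15 (adjusted p = 0.412). Without LPS the values were 6.66, 5.50, 7.39 and 4.76 CPM in GWCBD30, against 7.30, 5.12, 5.88 and 6.47 CPM in GWVeh, a log2 difference of -0.03 with a 95% interval of -0.34 to 0.29. The CBD by LPS interaction of Gpr3 was 0.46 ± 0.22 (adjusted p = 0.856). Among the marker lists Gpr3 had its largest r, 0.59, with red blood cell markers (permutation test, adjusted p = 0.0851), and 0.60 after centring each group. The rho was 0.57 (adjusted p = 0.129). The sum of these markers was 229 to 356 CPM in GWCBD30LPS and 115 to 221 CPM in GWVehLPS. It was 108 to 310 CPM in GWCBD30 and 127 to 762 CPM in GWVeh. Their part in the Gpr3 values was not tested. In unexposed mice all 3 LPS libraries, at 5.80, 5.91 and 6.15 CPM, were below the 3 PBS libraries, at 6.38, 7.19 and 7.30 CPM, a log2 change of -0.23 (adjusted p = 0.642), and 8.13% of all genes had groups that did not overlap in this direction.

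Gpr6, which in mouse brain is enriched in the striatum, gave the largest exposure difference of the family. It read 5.98, 8.98, 5.61 and 9.50 CPM in GWVehLPS, against 13.6, 8.72 and 8.49 CPM in CtrlVehLPS. The highest value belonged to the library that stood apart, and the others overlapped. The log2 difference was -0.47 ± 0.17 (adjusted p = 0.474), and without that library it was -0.20 (adjusted p = 0.999). LPS in unexposed mice gave 0.39 ± 0.18 (adjusted p = 0.385), with CtrlVeh at 8.25, 8.07 and 7.49 CPM, and 0.12 without that library (adjusted p = 0.845). Gpr6 read 7.41, 8.21, 6.76 and 9.23 CPM in GWCBD30LPS, and under LPS its CBD difference from vehicle was 0.07 ± 0.16.

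Gpr12 was the steadiest of the family, at 14.4 to 21.5 CPM over the 22 libraries, with group means of 16.5 to 18.3 CPM. Its log2 differences ran from -0.09 to 0.15 in the 7 contrasts of 2 groups. The genes nearest to Gpr12 in pattern were Klhdc4 (r = 0.80, rho = 0.80), Inf2 (r = 0.67, rho = 0.63) and Rgs20 (r = 0.67, rho = 0.71). Those nearest to Gpr3 were Scn4b (r = 0.72, rho = 0.57), Gm12397 (r = 0.71, rho = 0.68) and Mki67 (r = 0.70, rho = 0.38). Of the 11 genes for Gs subunits and adenylyl cyclases, the route of these receptors, none passed in any of the 12 contrasts of the reported fit. In 19 of 132 gene and contrast pairs (14.4%) the unadjusted p was under 0.05, against 9.08% of such pairs over all genes; contrasts share libraries, so the pairs are not independent. The smallest was that of Adcy5, the main adenylyl cyclase of the striatum, at an exposure by LPS interaction of -0.31 ± 0.08 (adjusted p = 0.295). With single libraries left out that interaction was -0.35 to -0.27. It passed in 1 of 33 alternatives, with adjusted p of 0.0316 to 0.911. Adcy5 is also among the 13 striatal markers scored below.

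**Figure D3:**
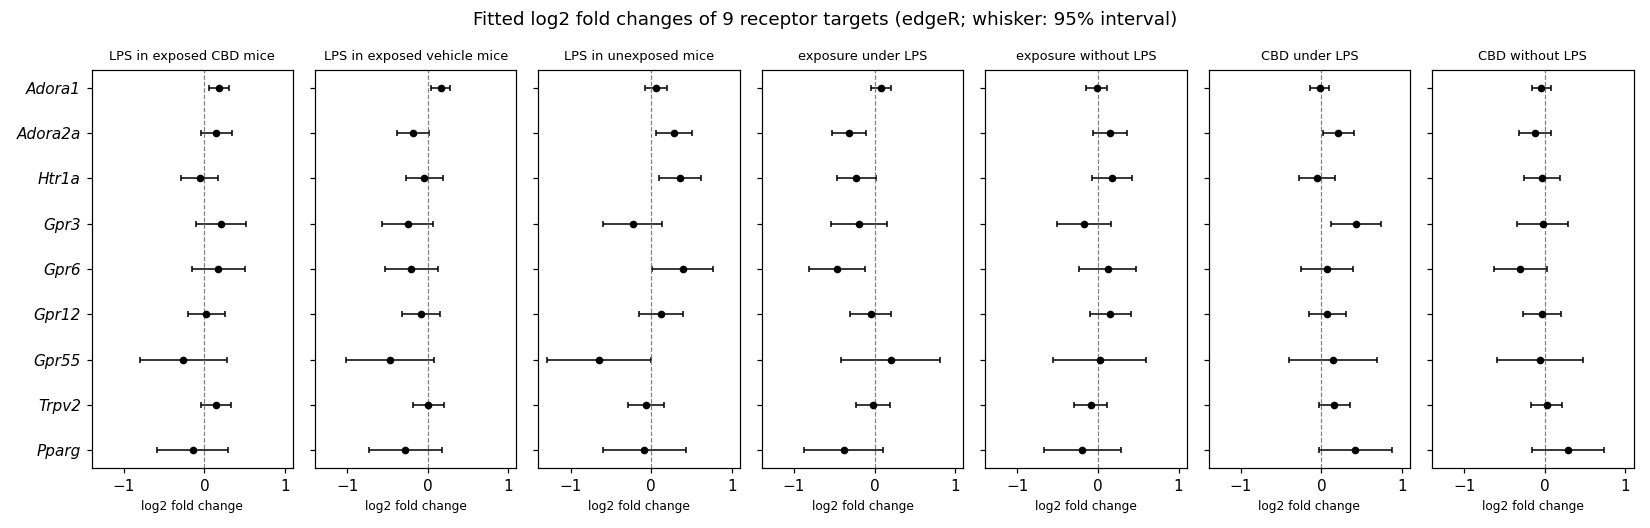
Fitted log2 fold changes of 9 receptor genes (Trpv1, with few counts, is not drawn) in the 7 contrasts of 2 groups, with 95% intervals as whiskers and a dashed line at 0. Adora1 lies at 0.18 for LPS in exposed CBD mice and 0.16 in exposed vehicle mice; Gpr55 has the widest intervals, and no gene passed the adjusted threshold in these panels.

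Adora2a, like Gpr6, passed in none of the 12 contrasts. It read 28.5, 38.6, 27.2 and 31.1 CPM in GWVehLPS, against 46.7, 34.4 and 35.4 CPM in CtrlVehLPS. The log2 difference for exposure under LPS was -0.31 ± 0.10 (adjusted p = 0.461). LPS in unexposed mice gave 0.28 ± 0.11 (adjusted p = 0.288), with CtrlVeh at 31.9, 31.6 and 32.7 CPM, all below the LPS libraries; 9.20% of all genes had groups that did not overlap in that direction. LPS in exposed vehicle mice gave -0.19 ± 0.10 (adjusted p = 0.511), with GWVeh at 39.0, 33.7, 34.1 and 35.8 CPM. The exposure by LPS interaction was -0.47 ± 0.15 (adjusted p = 0.399). Without the library that stood apart these 3 values for exposure under LPS, LPS in unexposed mice and the interaction were -0.15, 0.12 and -0.31, with adjusted p of 0.999, 0.696 and 0.729.

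CBD under LPS gave Adora2a 34.7, 39.2, 32.2 and 39.4 CPM in GWCBD30LPS, against the GWVehLPS values above, and the groups overlapped. The log2 difference was 0.21 ± 0.10 (adjusted p = 0.654). Without LPS, GWCBD30 mice read 33.2, 31.6, 34.7 and 31.6 CPM, a difference from GWVeh of -0.12 ± 0.10 (adjusted p = 0.821). The CBD by LPS interaction was 0.33 ± 0.14 (adjusted p = 0.776). For exposure without LPS all 4 GWVeh libraries were above the 3 CtrlVeh libraries, as they were for 4.8% of all genes, at a log2 difference of 0.15 ± 0.10 (adjusted p = 0.684).

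Both Adora2a and Gpr6 tracked a striatal marker score of the library. Against the mean log2 CPM of 13 striatal projection neuron markers, Adora2a had r = 0.84 (permutation test, adjusted p = 0.00198; rho = 0.61, adjusted p = 0.129) and Gpr6 had r = 0.82 (adjusted p = 0.00247; rho = 0.70, adjusted p = 0.0406). The r was 0.65 for Adora2a and 0.60 for Gpr6 without CtrlVehLPS replicate 1, which had the highest score, and GWVehLPS replicate 3, which had the lowest. It was 0.78 and 0.87 for Adora2a and Gpr6 after centring each group. All 13 markers were detected in each group, and their summed level was 1557 to 1749 CPM in GWCBD30LPS and 1461 to 1520 CPM in GWCBD30. The sum was 1333 to 1655 CPM in GWVehLPS and 1536 to 1700 CPM in GWVeh, and 1507 to 1840 CPM in CtrlVehLPS against 1447 to 1536 CPM in CtrlVeh. With the striatal score as a covariate, the Adora2a difference for exposure under LPS was -0.13 (adjusted p = 0.919) and that of Gpr6 was -0.14 (adjusted p = 0.952). With the same covariate, the CBD difference of Adora2a under LPS was 0.06 (adjusted p = 0.955). The score is made of genes expressed in striatal neurons, so this fit cannot tell tissue makeup from expression within those cells. The part of either in these differences was not tested. The gene nearest to Adora2a in pattern was the phosphodiesterase Pde1b (r = 0.85, rho = 0.79), itself a marker of the list, followed by Eipr1 (r = 0.81, rho = 0.81) and Cpne5 (r = 0.81, rho = 0.71). The nearest to Gpr6 was Tac1 (r = 0.84, rho = 0.71), which encodes substance P and is also in that list, followed by Zmat2 (r = 0.81, rho = 0.70) and Adora2a (r = 0.80, rho = 0.61). Gpr6 further had r = -0.64 with 9 choroid plexus markers (adjusted p = 0.0386; rho = -0.50, adjusted p = 0.276), and r was -0.35 without the same 2 libraries and -0.64 after centring each group.

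**Figure D4:**
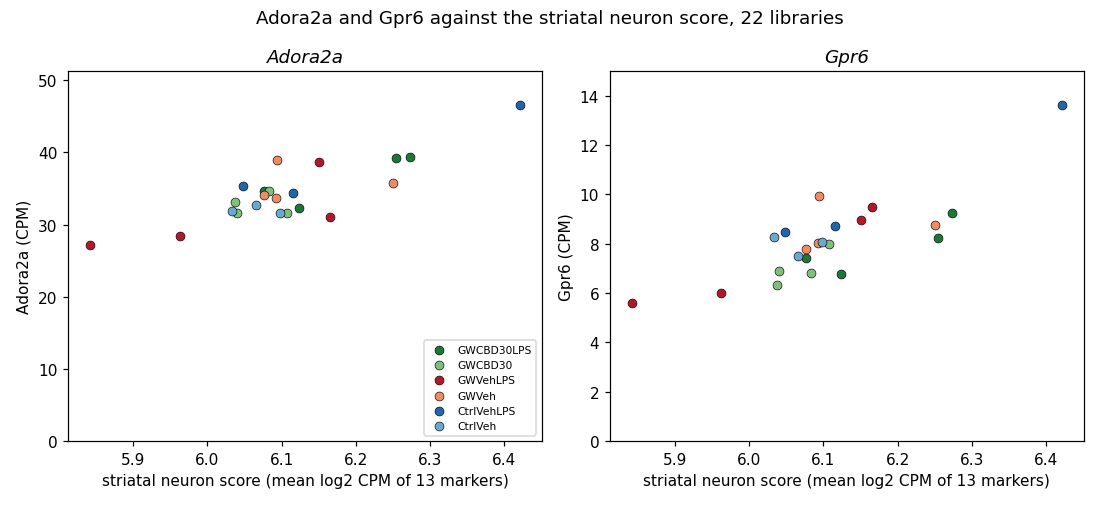
Adora2a and Gpr6 (CPM) in each of 22 libraries against the striatal neuron score (mean log2 CPM of 13 markers), coloured by group. Both genes lie higher where the score is higher, with CtrlVehLPS replicate 1 at the top right at 46.7 CPM for Adora2a and 13.6 CPM for Gpr6.

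Other genes of adenosine handling did not pass. Of 14 adenosine receptors, transporters and enzymes, none passed in the 12 contrasts in edgeR, and 18 of 168 pairs (10.7%, against 9.08% over all genes) had an unadjusted p under 0.05. The smallest was that of Pnp, a purine nucleoside phosphorylase that breaks down inosine, at a CBD difference over both LPS states of -0.32 ± 0.09 (adjusted p = 0.275). Of 9 genes for Gi/o proteins and the potassium channels they open, 19 of 108 pairs (17.6%, against 9.08% over all genes) had an unadjusted p under 0.05. Of these genes 1 passed in 1 contrast, LPS over all arms, where 3.52% of all genes passed. It was Gnai2, a Gi subunit, which rose by 0.15 ± 0.04 (adjusted p = 0.0314). The call held in 23 of 32 alternatives, with adjusted p up to 0.236. Gnai2 averaged 215 ± 10.9 CPM in GWCBD30LPS and 191 ± 15.9 CPM in GWCBD30, 219 ± 20.9 CPM in GWVehLPS and 211 ± 16.3 CPM in GWVeh, and 212 ± 9.52 CPM in CtrlVehLPS and 181 ± 4.52 CPM in CtrlVeh (SD, n = 4 and 3 a group).

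Htr1a read 25.2, 25.6 and 18.2 CPM in CtrlVehLPS, against 20.4, 15.7 and 17.9 CPM in CtrlVeh. The third LPS library lay inside the PBS range, and the log2 change was 0.36 ± 0.13 (adjusted p = 0.222). With single libraries left out that change was 0.27 to 0.50. In the exposed arms the LPS change was -0.06 ± 0.11 with CBD and -0.04 ± 0.11 with vehicle, and the exposure by LPS interaction was -0.40 ± 0.17 (adjusted p = 0.521). Htr1a was at 17.7 to 20.1 CPM in GWCBD30LPS and 18.2 to 21.4 CPM in GWCBD30, and at 16.5 to 24.2 CPM in GWVehLPS and 18.5 to 23.4 CPM in GWVeh. CBD differed from vehicle by -0.05 (95% interval -0.28 to 0.17) under LPS and by -0.03 (-0.26 to 0.19) without it. Serotonin neuron markers were raised in the CtrlVehLPS libraries, by the sums given above. Htr1a had r = 0.13 with them (permutation test, adjusted p = 0.868), and 0.0036 after centring each group. With border macrophage markers its r was 0.47 (adjusted p = 0.178), and 0.69 after centring. With cerebellar neuron markers its r was -0.48 (adjusted p = 0.141), and -0.31 after centring. The part of these cells in the Htr1a values was not tested. Among 12 other serotonin receptors none passed, and 15 of 144 pairs (10.4%, against 9.08% over all genes) had an unadjusted p under 0.05. The nearest genes to Htr1a in pattern were Rgs19 (r = 0.73, rho = 0.61), A230060F14Rik (r = 0.70, rho = 0.61) and Psmg1 (r = 0.69, rho = 0.64). The smallest p among the serotonin receptors was that of Htr6, a Gs-coupled serotonin receptor, which averaged 4.34 ± 0.65 CPM in GWVehLPS and 6.20 ± 1.03 CPM in GWVeh, a log2 difference of -0.51 ± 0.16 (adjusted p = 0.134).

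Trpv1, the capsaicin receptor, was barely detected: it had 13, 0, 2 and 1 counts in GWCBD30LPS and 5, 3, 2 and 7 counts in GWCBD30. It had 2, 1, 2 and 9 counts in GWVehLPS and 3, 4, 6 and 2 counts in GWVeh, and 13, 4 and 8 counts in CtrlVehLPS and 0, 6 and 10 counts in CtrlVeh. Most libraries were near the floor of 3 counts, which was 0.0975 to 0.176 CPM, and a difference between groups was not detectable at this depth. Trpv1 passed the filter on low counts through its few highest libraries.

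Trpv2 was far more abundant, at 16.0 to 23.1 CPM. It read 22.6, 23.0, 20.7 and 21.3 CPM in GWCBD30LPS, against 20.2, 18.9, 20.3 and 19.1 CPM in GWVehLPS. The CBD libraries were all above the vehicle libraries under LPS, as 1.78% of all genes were, by a log2 difference of 0.16 ± 0.09 (adjusted p = 0.788). GWCBD30LPS was also wholly above GWCBD30, at 18.1 to 20.7 CPM, as were 3.39% of all genes, by 0.14 ± 0.09 (adjusted p = 0.709). The other 2-group differences of Trpv2 lay between -0.09 and 0.02. Its nearest genes in pattern were Fkbp15 (r = 0.71, rho = 0.61), Gm36236 (r = 0.65, rho = 0.62) and ENSMUSG00000120134 (r = 0.65, rho = 0.68). Of the other 4 thermosensitive TRP channels tested, none passed, and 10 of 48 pairs (20.8%, against 9.08% over all genes) had an unadjusted p under 0.05. Trpv4, an osmotically and thermally gated channel, came closest: it averaged 6.85 ± 0.83 CPM in GWVehLPS and 3.34 ± 0.72 CPM in CtrlVehLPS, a log2 difference of 1.05 ± 0.20 (adjusted p = 0.0612). It passed in 10 of 33 alternatives, among them no filter on low counts (adjusted p = 0.000281), DESeq2 (adjusted p = 0.000735) and the fit without CtrlVehLPS replicate 3 (adjusted p = 0.0275), with adjusted p up to 1. With single libraries left out the Trpv4 difference was 0.87 to 1.16, with adjusted p of 0.0275 to 0.774. Trpv4 was lowest, at 2.51 CPM, in CtrlVehLPS replicate 1, where the choroid plexus sum was 288 CPM. That sum was 501 to 775 CPM in GWVehLPS and 288 to 571 CPM in CtrlVehLPS. The part of choroid plexus in the Trpv4 difference was not tested.

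Pparg passed in none of the CBD contrasts. It read 2.86, 2.88, 3.17 and 2.95 CPM in GWCBD30LPS, against 1.99, 2.28, 2.30 and 2.29 CPM in GWVehLPS. The CBD libraries were all above the vehicle libraries, a log2 difference of 0.42 ± 0.22 (adjusted p = 0.744). Of all genes, 1.78% had groups that did not overlap in this direction, and 2 of the 10 receptor genes, Pparg and Trpv2, did. Without LPS it read 3.41, 2.91, 3.12 and 3.70 CPM in GWCBD30, against 2.89, 2.01, 2.45 and 3.37 CPM in GWVeh, a difference of 0.29 ± 0.22 (adjusted p = 0.816). Over both LPS states the difference was 0.36 ± 0.16 (adjusted p = 0.561). With the striatal score as a covariate the difference under LPS was 0.19 (adjusted p = 0.938), and the part of striatal neurons in it was not tested. The nearest genes in pattern were Cdsn (r = 0.80, rho = 0.67), 5430414B19Rik (r = 0.79, rho = 0.67) and Wdr17 (r = 0.78, rho = 0.64). The unexposed mice spread widely, at 4.10, 2.93 and 1.46 CPM in CtrlVehLPS against 2.56, 2.90 and 3.69 CPM in CtrlVeh.

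Counts of receptor genes past the threshold in the other contrasts were all 0 of 10 in edgeR and in DESeq2, which gave no adjusted p for some receptor genes. For LPS the background was 0.00499% of all genes in exposed CBD mice, 0.939% in exposed vehicle mice and 0.494% in unexposed mice, or 99 genes, which became 20 to 150 with single libraries left out. For exposure it was 0.00499% under LPS, 0% without LPS and 0.03% over both LPS states. For CBD it was 0.24% under LPS, or 48 genes (22 to 67 with single libraries left out), 0% without LPS and 0% over both states, and for the interactions it was 0% for exposure by LPS and 0.0449% for CBD by LPS. In LPS over all arms an unadjusted p under 0.05 was reached by 2 of the 10 genes and by 17.8% of all genes. It was reached by 1, 1 and 4 of the 10 genes for LPS in exposed CBD, exposed vehicle and unexposed mice, where 8.22%, 10.4% and 12.2% of all genes did. It was reached by 2 genes for exposure under LPS, where 7.73% of all genes did, by 0 without LPS (8.8% of all genes) and by 0 over both states (7.76%). For CBD it was reached by 2 genes under LPS (7.10%), by 0 without LPS (6.43%) and by 1 over both states (8.35%). It was reached by 3 genes for the exposure by LPS interaction (8.43%) and by 2 for the CBD by LPS interaction (5.69%). Of the 10 receptor genes, the limma voom fit called Htr1a for LPS in unexposed mice and no other in these 11 contrasts.

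Genes that PPAR receptors switch on were called in contrasts where Pparg itself was not. Of 17 such genes, 12 were tested, and several are shared targets of Pparg and its relative Ppara. Over the 12 contrasts 29 of 144 pairs (20.1%, against 9.08% over all genes) had an unadjusted p under 0.05. With LPS the 12 had 3, 6 and 1 such genes in exposed CBD, exposed vehicle and unexposed mice (8.22%, 10.4% and 12.2% of all genes). The log2 change was above 0 for 11, 10 and 9 of the 12 in the same order. Of all genes 0.939% passed the adjusted threshold with LPS in exposed vehicle mice. In that contrast the 12 had a median log2 change of 0.27, against 0.00 for all genes. Of the 12, 4 rose and none fell. They were the lipid droplet protein Plin4 (1.97 ± 0.33, adjusted p = 0.00412), the lipase inhibitor Angptl4 (1.11 ± 0.23, adjusted p = 0.0065), the fatty acid importer Cpt1a (0.30 ± 0.07, adjusted p = 0.02) and the cholesterol exporter Abcg1 (0.27 ± 0.07, adjusted p = 0.0451). The Abcg1 call held in 15 of 33 alternatives, with adjusted p up to 0.224, against 28 for Cpt1a and 32 each for Plin4 and Angptl4. With the fit limited to the groups compared 1 of the 12 passed, and without GWVehLPS replicate 2 or 4 or GWVeh replicate 3 or 4 there were 2. In the same contrast Pparg had a log2 change of -0.28 ± 0.22 (adjusted p = 0.742). Markers of other cells rose in this contrast: 7 of 9 microglial, 3 of 8 endothelial and 1 of 7 border macrophage markers passed. The endothelial sum was 143 to 160 CPM in GWVehLPS and 105 to 123 CPM in GWVeh, and the border macrophage sum was 27.0 to 33.04 CPM in GWVehLPS and 19.8 to 22.05 CPM in GWVeh. Their part in the PPAR target values was not tested.

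Under LPS, 1 of the 12 fell with CBD and none rose, where 0.24% of all genes passed. The median of the 12 was -0.09, against 0.00 for all genes. Angptl4 read 1.33, 1.08, 1.41 and 2.06 CPM in GWCBD30LPS, against 3.25, 3.07, 2.71 and 4.86 CPM in GWVehLPS, and it fell by 1.24 ± 0.23 on the log2 scale (adjusted p = 0.00525). All 4 CBD libraries were below all 4 vehicle libraries for Angptl4, as they were for 2.5% of all genes. Plin4 was also lower, at 4.91, 5.72, 4.39 and 3.95 CPM in GWCBD30LPS and 23.1, 6.18, 8.60 and 17.2 CPM in GWVehLPS, a difference of -1.54 ± 0.32 that missed the threshold (adjusted p = 0.0562). Cpt1a was near level, at 37.1 ± 2.75 CPM in GWCBD30LPS and 38.7 ± 1.36 CPM in GWVehLPS (SD, n = 4 each), a difference of -0.06 ± 0.07. Without GWVehLPS replicate 4, Angptl4 was at the threshold's edge (adjusted p = 0.051) and none of the 12 passed, while without GWVehLPS replicate 2 or 3 there were 2. In the same contrast 3 of 8 endothelial and 2 of 9 microglial markers fell, and 0 of 7 border macrophage markers passed. The endothelial sum was 113 to 120 CPM in GWCBD30LPS and 143 to 160 CPM in GWVehLPS, and the microglial sum was 248 to 276 CPM in GWCBD30LPS and 276 to 359 CPM in GWVehLPS. The border macrophage sum was 19.3 to 24.1 CPM in GWCBD30LPS and 27.0 to 33.04 CPM in GWVehLPS, so the endothelial and border macrophage sums were fully separate. The red blood cell sum was separate in the other direction, at 229 to 356 CPM in GWCBD30LPS and 115 to 221 CPM in GWVehLPS. The part of these cells in the fall of Angptl4 was not tested.

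**Figure D5:**
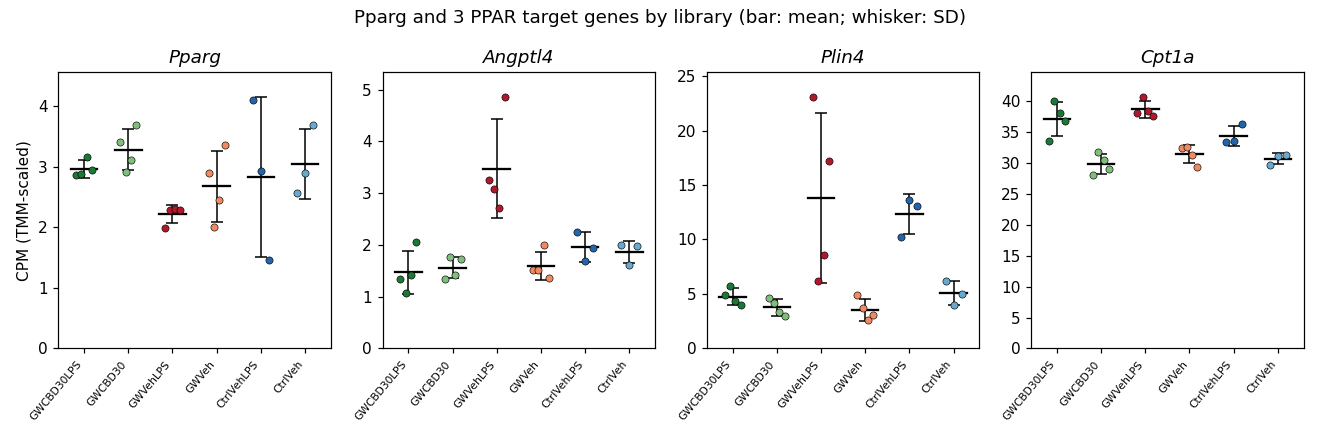
Pparg and 3 PPAR target genes (CPM, linear axis from 0) by group, with a point per library, a bar at the mean and a whisker of 1 SD. Angptl4 averaged 1.47 CPM in GWCBD30LPS and 3.47 CPM in GWVehLPS, while Pparg averaged 2.97 and 2.22 CPM in the same groups.

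With LPS over all arms 4 of the 12 PPAR targets rose and none fell, where 3.52% of all genes passed. The median of the 12 was 0.16, against -0.01 for all genes. Cpt1a rose by 0.26 ± 0.04 (adjusted p = 0.000257), Plin4 by 1.19 ± 0.20 (adjusted p = 0.00212), Abcg1 by 0.20 ± 0.04 (adjusted p = 0.0031) and the mitochondrial carrier Ucp2 by 0.54 ± 0.13 (adjusted p = 0.0245). In this contrast 7 of 9 microglial, 4 of 8 olfactory bulb, 2 of 7 border macrophage, 1 of 8 endothelial, 1 of 5 serotonin neuron and 1 of 13 striatal markers rose, 1 of 6 meningeal fibroblast markers fell, and their part was not tested. Pparg had a change of -0.17 ± 0.13 (adjusted p = 0.544). The PPAR relatives and partners did not pass in the reported fit: of 12 genes none did, and 24 of 144 pairs (16.7%, against 9.08% over all genes) had an unadjusted p under 0.05. The smallest was that of Ppara, at 4.11 ± 0.73 CPM in CtrlVehLPS and 2.21 ± 0.19 CPM in CtrlVeh, a log2 difference of 0.89 ± 0.26 (adjusted p = 0.121). Ppara passed there in 1 of 33 alternatives, with adjusted p of 0.0149 to 0.337. Of 12 further proteins to which CBD is known to bind, such as glycine receptors and fatty acid binding proteins, none passed, with 12 of 144 pairs (8.33%, against 9.08% over all genes) under an unadjusted p of 0.05. The smallest was that of Cacna1h, a T-type calcium channel, at an exposure by LPS interaction of -0.40 ± 0.12 (adjusted p = 0.328). With single libraries left out that interaction was -0.46 to -0.32.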

How the data were processed

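Whole-brain RNA (integrity number 8.5 or more) was made into stranded poly(A) libraries and sequenced as 150 bp paired ends, per the labels' protocols, and reads were aligned to GRCm38 (mm10, per the submitters' processing notes). The authors deposited raw counts per gene, as the whole numbers in the table show. Neither the aligner nor the counter nor the annotation is given in the sources used here. Columns were matched to samples by library name, with 0 columns of other samples.

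Counts of 22 libraries were fitted as 6 group means with edgeR 4.0.16 in R 4.3.3 (filterByExpr, TMM scaling, robust quasi-likelihood test, 16 residual degrees of freedom), with Benjamini-Hochberg adjustment over 20026 genes and a threshold of 0.05. The code was tested on simulated data. A floor of 3 counts was 0.0975 to 0.176 CPM and covers counting error only, while the 95% intervals of log2 differences come from the fit and include the spread between mice. Each mouse gave 1 library. RPKM used the exonic length in GENCODE M21, so the order of groups within a gene is that of CPM. Marker scores are mean log2 CPM (prior count 2), with 100000 resamples per permutation test. Alternatives used DESeq2 1.42.0, limma 3.58.1 and other settings.

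The genes, the gene lists and the tests were chosen with earlier results of these data known. Of each list, at most 4 genes past the threshold are named by smallest p, or else the gene with the smallest p; Ucp2 and the levels of Plin4 under CBD were added after their values were seen. A gene of the PPAR target list and 1 whole list were left out after their values were seen and are not reported here. Nearest genes are the 3 with the highest r for each receptor with a mean log2 CPM of at least 0. Shared replicate numbers did not pair the mice: deviations of same-numbered libraries correlated at -0.0885 to 0.133, with 1 of 51 pairs over 0.1.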

Additional observations from a re-analysis of the deposited data

Results flagged for a closer look

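In groups of 4 libraries, a library was picked out where its gap to the nearest other library was large against the range of the group. Of 40 gene and group sets tested, 2 were picked out, and chance gives about 1 in 20. Trpv1 in GWVehLPS had its highest library, replicate 4, at 0.480273 CPM, with the nearest at 0.0919543 CPM. Pparg in GWVehLPS had its lowest library, replicate 1, at 1.99313 CPM, with the nearest at 2.28379 CPM.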

How the results depend on the processing

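Under 34 settings other than the one reported, 3917 values of the 10 receptor genes were recomputed: 12 crossed the threshold, and 159, in 54 of 120 gene and contrast pairs, changed sign with neither value past it. For LPS over all arms, where Adora1 alone passed, limma voom with sample quality weights called 2 genes (adding Gpr55 at -0.58, adjusted p = 0.0175), the olfactory bulb and cerebellar scores as covariates called 0, and leaving out single libraries gave 0 to 2. Adora1 passed in 23 of 32 settings, with log2 changes of 0.12 to 0.15 and adjusted p of 0.00162 to 0.0829. Gpr55 passed without CtrlVehLPS replicate 1. For LPS in unexposed mice, voom called 1 gene, Htr1a (0.45, adjusted p = 0.0295). PPAR targets that rose with LPS in exposed vehicle mice numbered 1 with the groups of the contrast alone, 2 with the bulb and cerebellar covariates and 2 to 4 with single libraries left out. Those that fell with CBD under LPS numbered 2 with the strict filter, DESeq2, voom, those covariates or an adjusted p of 0.1, and 0 to 2 with single libraries left out. These PPAR counts were chosen for repetition after their values were seen. The cause was not tested.

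The replicate number as a block left Adora1 at 0.13 (adjusted p = 0.0338) and gave Trpv4 1.09 for exposure under LPS (adjusted p = 0.0338); pairing of the mice by number was not found. Counts over all genes for LPS in unexposed mice, CBD under LPS and exposure under LPS, reported as 99, 48 and 1, were 357, 138 and 118 with no filter, 269, 108 and 25 with DESeq2, 644, 140 and 6 with voom, and 20 to 150, 22 to 67 and 0 to 24 with single libraries left out. For LPS over all arms they were 1062, 1061 and, with voom, 1429, against 705. For exposure without LPS, where edgeR called 0 of all genes and 1762 had an unadjusted p under 0.05, DESeq2 called 6 and voom 84. The strict filter gave no value for Trpv1. Low counts limit what can be seen for Trpv1, Gpr55 and Pparg.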
